A study of Macaca mulatta with 20 samples.

Results

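Sertoli cells line the seminiferous tubules of the testis, nurse the germ cells and close the tubule with tight junctions. They secrete AMH (anti-Müllerian hormone), inhibins built from INHA and INHBB, the hedgehog ligand DHH and clusterin (CLU), and they receive follicle-stimulating hormone through its receptor FSHR. The factors WT1, GATA4 and DMRT1 act in gonad formation and in keeping these cells what they are, and CLDN11 is a claudin of their junctions. All 10 of these genes were described here, through every probe set that named 1 of them as its only gene symbol in the array annotation. The rhesus arrays held 10 such probe sets of 52865, for 6 of the genes, and the human arrays held 19 of 54675, for 9 of them. INHA, INHBB, WT1, DHH and GATA4 were on both array types, AMH on the rhesus arrays and FSHR, CLU, DMRT1 and CLDN11 on the human arrays. Where a member has no probe set on an array type, its level there was not analysed.

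The RNA came from rhesus macaques, as total RNA extracted with Trizol from testis, thymus, pancreas, cerebral cortex and a culture of immortalized fibroblasts, and no treatment is named for any source. Aliquots of each source were labelled from 5 ug of total RNA as biotinylated cRNA and read on 2 Rhesus Macaque Genome Arrays and 2 Human Genome U133 Plus 2.0 Arrays, 20 arrays in all. Arrays of one source are technical replicates per the labels, which give no age or number of animals, so each p-value compares 5 RNA preparations against the spread between arrays, and not animals. In whole tissue RNA, more Sertoli cells and more RNA per Sertoli cell cannot be told apart.

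Levels are the deposited log2 expression values, on which a difference of 1 is a doubling, and the testis difference is the mean level in testis minus the mean of the other 4 sources. A probe set was called at a limma adjusted p below 0.05 and an absolute difference of at least 1. A level was above background where both arrays of the source exceeded the highest bacterial control without spiked RNA on the same array, which lay between 2.82 and 3.80 on the rhesus and between 3.01 and 3.29 on the human arrays. A difference that starts from background is not an exact fold, and levels of different probe sets are not comparable. The arrays of a source correlated with Pearson's r from 0.986 to 0.997 across probe sets, which are not independent. The pancreas pairs had the widest spread, with an SD around the pair mean of 0.281 on rhesus arrays and 0.218 on human arrays, against 0.137 to 0.170 for the other pairs. For actin, the gap between the 3' and the 5' control probe set was also widest in pancreas on the rhesus arrays, at 4.58 against 2.07 to 2.66 in the others, where testis read 2.66. That for GAPDH was widest in pancreas on both types, at 2.77 and 1.31, whereas that for actin on the human arrays was widest in testis, at 2.47 against 2.40 in pancreas. Their part in the pancreas levels given here was not tested.

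Every one of the 10 genes was called higher in testis than in the mean of the other sources by its brightest probe set, on each array type that held it. Among the single probe sets, 9 of 10 were called higher on the rhesus arrays, where 12.8% of all probe sets were, and 12 of 19 on the human arrays, where 6.05% were. limma called 0 lower on either type, where 7.69% and 3.59% of all probe sets were lower. At an unadjusted p below 0.05, 1 rhesus and 3 human probe sets were lower by small amounts, and an ordinary analysis of variance contrast also called 0. The median testis difference of the members was 5.08 on rhesus arrays and 2.04 on human arrays, against −0.10 and −0.06 over all probe sets. Testis was called higher than each other source separately for 9 rhesus and 8 human probe sets, against 3.33% and 1.61% of all probe sets. Testis was the only source above background for 5 rhesus and 7 human members, a pattern that 2.43% and 1.25% of all probe sets had. Another 1 rhesus and 5 human members were above background in no source.

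**Figure D1:**
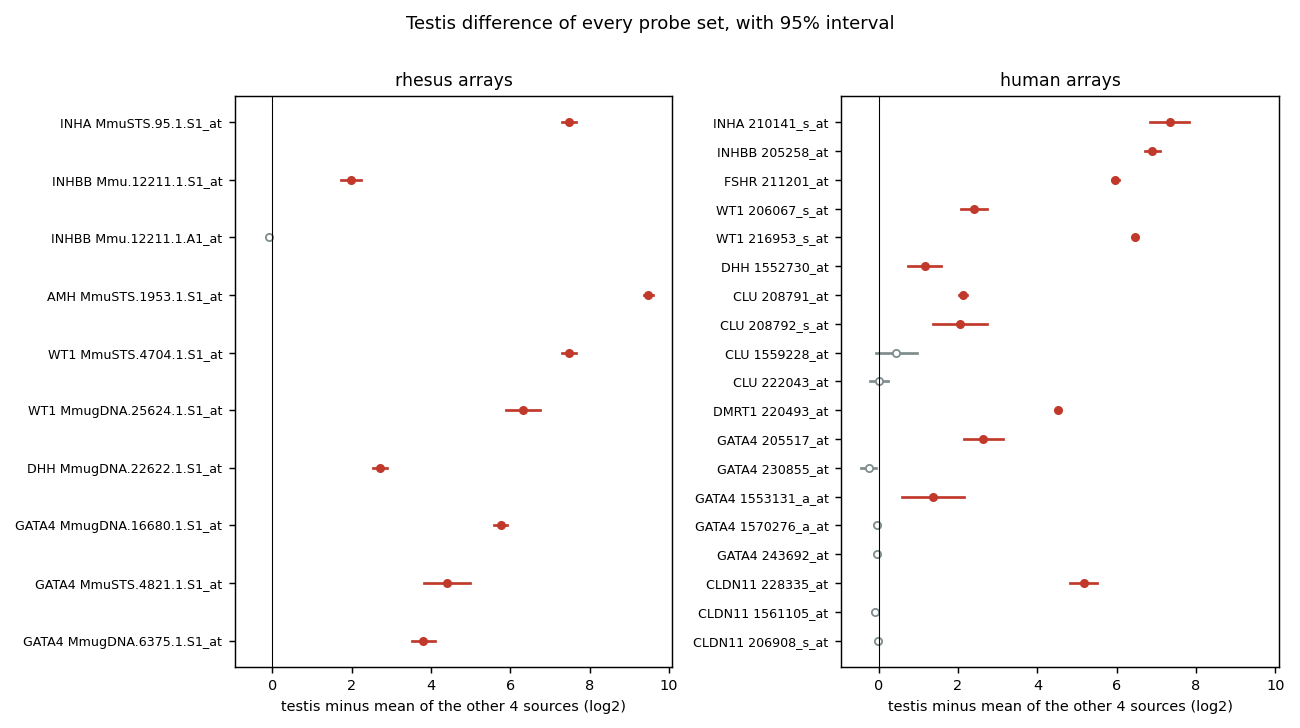
Testis level minus the mean of the other 4 sources, log2, for each probe set on the rhesus (left) and human (right) arrays. Points are limma estimates with 95% intervals, and filled red points are called. The AMH probe set lies farthest right at 9.48, and the open points near 0 are probe sets that were not called.

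AMH, the hormone that makes the Müllerian ducts regress in the male fetus, gave the largest difference of the members. Its rhesus probe set MmuSTS.1953.1.S1_at read 11.67 and 11.49 in testis, 2.05 and 2.06 in cortex, 2.12 and 2.13 in fibroblasts, 2.16 and 2.14 in pancreas and 2.07 and 2.07 in thymus. Both testis arrays stood far above the other 8, all of which lay below background. The testis difference was 9.48 (SE 0.046, limma adjusted p = 2.0e-09), rank 3 of the 52766 probe sets tested.

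INHA encodes the alpha subunit that all inhibins share, and inhibins lower follicle-stimulating hormone output from the pituitary. Rhesus probe set MmuSTS.95.1.S1_at read 10.83 and 10.89 in testis, 4.78 and 5.04 in pancreas, 3.02 and 3.08 in cortex, 3.01 and 3.07 in thymus and 2.53 and 2.48 in fibroblasts. Pancreas was the only other source with both arrays above background, and its arrays did not overlap those of cortex, fibroblasts or thymus. Pancreas stood 5.95 below testis (limma adjusted p = 6.8e-08) and 1.86 above cortex (5.1e-06), whereas cortex and thymus differed by 0.01 (95% interval −0.20 to 0.22). On the human arrays 210141_s_at read 9.85 and 10.07 in testis and 3.48 and 2.64 in pancreas, and between 2.46 and 2.47 on the 6 other arrays. There the pancreas arrays disagreed by more than the testis arrays, and pancreas exceeded cortex by 0.60 (95% interval −0.02 to 1.22), which was not called. The testis differences of 7.48 and 7.34 ranked 18 on rhesus arrays and 4 on human arrays.

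INHBB, the beta B subunit of inhibin B and of activin B, was read by 2 rhesus probe sets and 1 human probe set. Mmu.12211.1.S1_at read 4.49 and 4.23 in testis, 2.70 and 2.45 in pancreas, 2.56 and 2.31 in fibroblasts, 2.30 and 2.26 in thymus and 2.15 and 2.28 in cortex. Its testis arrays were above the other 8, none of which reached background, and the other 4 sources did not differ from their neighbours in the order of levels by more than 0.15. Mmu.12211.1.A1_at lay between 2.27 and 2.46 on all 10 arrays, below background, with a testis difference of −0.07 (adjusted p = 0.056 by limma). Human probe set 205258_at read 9.40 and 9.43 in testis, 2.96 and 3.29 in cortex, 2.31 and 2.31 in fibroblasts, 2.35 and 2.35 in pancreas and 2.30 and 2.28 in thymus. Cortex came next after testis, 6.29 below it, and 1 of its 2 arrays exceeded background.

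DHH, the hedgehog ligand that Sertoli cells send to Leydig and peritubular cells, was low on both array types. On the rhesus arrays MmugDNA.22622.1.S1_at read 5.02 and 5.25 in testis, with the other 8 arrays from 2.32 to 2.62, and the testis difference was 2.72 (SE 0.073, limma adjusted p = 7.1e-07). On the human arrays 1552730_at read 3.99 and 3.31 in testis, 2.65 and 2.39 in cortex, 2.47 and 2.48 in fibroblasts, 2.50 and 2.52 in pancreas and 2.47 and 2.46 in thymus. The human testis arrays differed from each other by 0.68 and both were above all others. Their difference of 1.16 (SE 0.168, adjusted p = 0.0034) fell to 0.82 without testis replicate 3, below the minimum of 1.

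**Figure D2:**
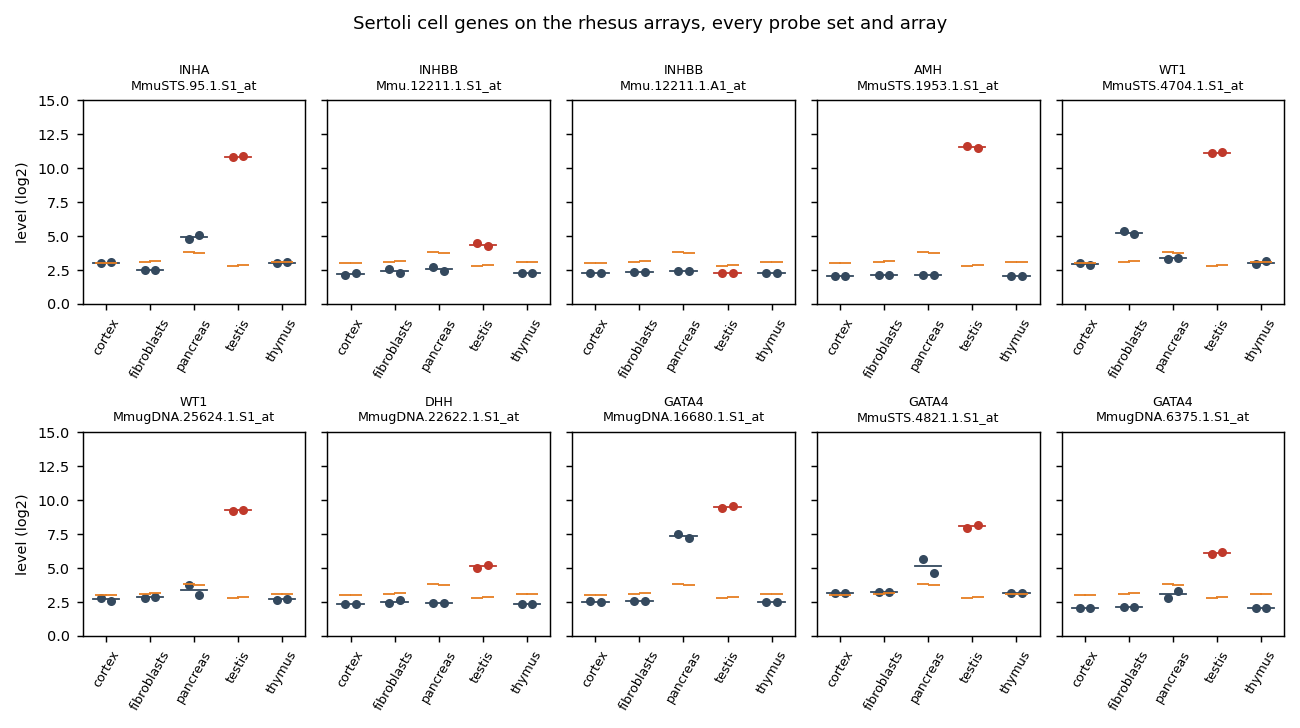
Levels (log2) of the 10 rhesus probe sets by source. Points are single arrays (2 per source, testis in red), lines their means and orange ticks the highest unspiked control of each array. Testis is highest in 9 panels, pancreas is raised for GATA4 and INHA, fibroblasts for WT1, and the second INHBB panel is flat.

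FSHR, the receptor that Sertoli cells alone carry in the testis, was read by the human probe set 211201_at. It read 8.20 and 8.09 in testis, 2.17 and 2.17 in cortex, 2.17 and 2.18 in fibroblasts, 2.19 and 2.25 in pancreas and 2.16 and 2.15 in thymus. Both testis arrays were about 6 log2 units above the rest, which all lay below background. Its testis difference was 5.96 (SE 0.033, limma adjusted p = 8.2e-09), rank 26 of 54613.

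WT1, a zinc finger factor of the gonad, kidney and mesothelium, was read by 2 probe sets on each array type. Rhesus MmuSTS.4704.1.S1_at read 11.10 and 11.16 in testis, 5.34 and 5.15 in fibroblasts, 3.35 and 3.41 in pancreas, 2.92 and 3.15 in thymus and 3.00 and 2.89 in cortex. Fibroblasts were second, 5.89 below testis and 1.87 above pancreas (limma adjusted p = 1.1e-05), and were the only other source above background. Rhesus MmugDNA.25624.1.S1_at read 9.17 and 9.31 in testis, while fibroblasts read 2.83 and 2.87, below background, so the fibroblast level was seen by only 1 of the probe sets.

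The human probe sets for WT1 differed in the same manner. Probe set 206067_s_at read 6.36 and 6.59 in testis, 5.24 and 5.25 in fibroblasts, 3.99 and 4.09 in pancreas, 3.38 and 3.90 in cortex and 3.46 and 3.36 in thymus, all above background. The order again put fibroblasts second, 1.23 below testis and 1.20 above pancreas (limma adjusted p = 0.0029 and 0.0027). With spiked controls subtracted from each array the step from fibroblasts to testis was 0.66 and was not called. Probe set 216953_s_at read 8.83 and 8.87 in testis and between 2.36 and 2.40 on the other 8 arrays, a testis difference of 6.47 (SE 0.015). Of the mesothelial markers, listed because mesothelium carries WT1, all 3 measured on the rhesus arrays lay at background in testis, and of 4 on the human arrays UPK3B read 3.13 and CALB2 6.78, the other 2 being at background.

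GATA4, a zinc finger factor of the gonad, heart and gut, had the most probe sets, 3 rhesus and 5 human, and pancreas was its second source. Rhesus MmugDNA.16680.1.S1_at read 9.45 and 9.56 in testis, 7.49 and 7.21 in pancreas, 2.55 and 2.53 in cortex, 2.59 and 2.61 in fibroblasts and 2.54 and 2.51 in thymus. Pancreas arrays lay 2.16 below testis (limma adjusted p = 4.4e-06) and more than 4 log2 units above the remaining sources, with no overlap. This was the one rhesus member called higher in pancreas than in the mean of the other sources, by 3.06, a call that 6.97% of all probe sets had. MmuSTS.4821.1.S1_at read 7.96 and 8.20 in testis and 5.69 and 4.65 in pancreas, and MmugDNA.6375.1.S1_at read 6.07 and 6.19 in testis and 2.81 and 3.31 in pancreas. All 3 rhesus probe sets put testis first and pancreas second, 2.91 and 3.08 apart in the latter pair, although the pancreas level of MmugDNA.6375.1.S1_at was below background.

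Among the human probe sets for GATA4, 205517_at read 6.32 and 6.08 in testis, 5.24 and 4.52 in pancreas, 3.24 and 3.25 in cortex, 3.03 and 3.08 in fibroblasts and 3.26 and 2.88 in thymus. Testis exceeded pancreas by 1.32 (limma adjusted p = 0.0059), but by 0.96 without pancreas replicate 4 and by 0.85 after quantile normalization, neither of which was called. Probe set 1553131_a_at read 3.16 and 4.00 in testis and 2.11 and 3.23 in pancreas, so the arrays of these sources overlapped. Its testis difference was 1.37 (adjusted p = 0.020), and 0.95 without testis replicate 4, when it was not called. Probe set 230855_at was highest in pancreas, at 3.52 and 3.19, against 2.39 and 2.40 in testis. It was above background in no source, since pancreas replicate 4 did not reach its limit of 3.29. The remaining 1570276_a_at and 243692_at stayed between 2.23 and 2.42 on all arrays, below background.

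DMRT1, the factor that keeps the male fate of the gonad and is also found in germ cells, was read by the human probe set 220493_at. The testis arrays read 7.50 and 7.42, and the other 8 lay between 2.88 and 3.03, below background. The testis difference was 4.52 (SE 0.025, limma adjusted p = 8.2e-09), with the smallest of the 4 separate differences, 4.43, against pancreas.

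CLU, a secreted chaperone also abundant in brain, was the one gene whose brightest probe set was not highest in testis. Human probe set 208791_at read 13.46 and 13.55 in cortex, 13.10 and 13.03 in testis, 12.10 and 12.05 in pancreas, 9.26 and 9.34 in fibroblasts and 8.88 and 8.90 in thymus. Arrays of the 5 sources did not overlap: cortex exceeded testis by 0.44 (limma adjusted p = 7.8e-04) and testis exceeded pancreas by 0.99 (2.6e-05), both below the minimum of 1 for a call. Probe set 208792_s_at gave the same order of sources, from 10.74 and 10.49 in cortex and 10.38 and 10.45 in testis down to 6.31 and 6.34 in thymus, with fibroblast arrays 7.60 and 6.43. In it the difference of testis from cortex was −0.19 (95% interval −1.05 to 0.66). Testis was called above the mean of the others by 2.12 and 2.04. The other 2 probe sets did not separate testis, 1559228_at with a difference of 0.44 (95% interval −0.07 to 0.96) and 222043_at with 0.0078 (−0.21 to 0.22).

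CLDN11 forms tight junction strands both between Sertoli cells and in the myelin of the brain. Human probe set 228335_at read 9.46 and 9.87 in testis, 9.25 and 8.86 in cortex, 3.13 and 3.13 in pancreas, 3.01 and 2.93 in thymus and 2.91 and 2.78 in fibroblasts. Testis and cortex arrays did not overlap but lay 0.61 apart (95% interval 0.19 to 1.03, limma adjusted p = 0.052), and testis was 6.53 to 6.82 above the other sources. Probe sets 1561105_at and 206908_s_at lay near background in every source, with testis differences of −0.10 and −0.03. Probe set 228335_at and both bright ones of CLU made 3 human members called higher in cortex than in the mean of the other sources, by 4.40, 2.68 and 2.29, against 7.72% of all probe sets. Markers of brain cells, which could bear on CLU and CLDN11 in cortex, were also measured. Among astrocyte markers 3 of 4 rhesus and 5 of 5 human genes were called lower in testis, as were 11.2% and 5.63% of all genes. Differences were −4.25 and −4.18 for SLC1A2, −3.34 and −2.81 for SLC1A3 and −1.79 and −1.10 for S100B. Human GFAP, AQP4 and S100B read 2.12, 2.58 and 2.33 in testis, at background as in fibroblasts, pancreas and thymus, so their calls rest on cortex. Human SLC1A2 also read 9.04 in pancreas and SLC1A3 7.23 in fibroblasts. The log2 of the summed levels of astrocyte markers on the human arrays was 4.83 to 5.17 in testis against 13.61 to 13.98 in cortex. Of the oligodendrocyte markers 1 of 2 rhesus and 3 of 5 human genes were lower, the summed human levels being 7.29 to 7.31 against 10.75 to 10.87, and MOG and MOBP were at background in testis. On the rhesus arrays MBP, a myelin protein, was at background in testis at 2.64 against 13.55 in cortex. There CNP lay between 12.27 and 13.46 in every source, with 13.21 in testis. Other markers were read in testis and not called. Human MBP was 5.65 in testis and 6.39 in cortex, human MAG 4.39 and 6.61, and rhesus GFAP 6.03 and 8.04. The part of brain cells in the CLU and CLDN11 levels was not tested.

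**Figure D3:**
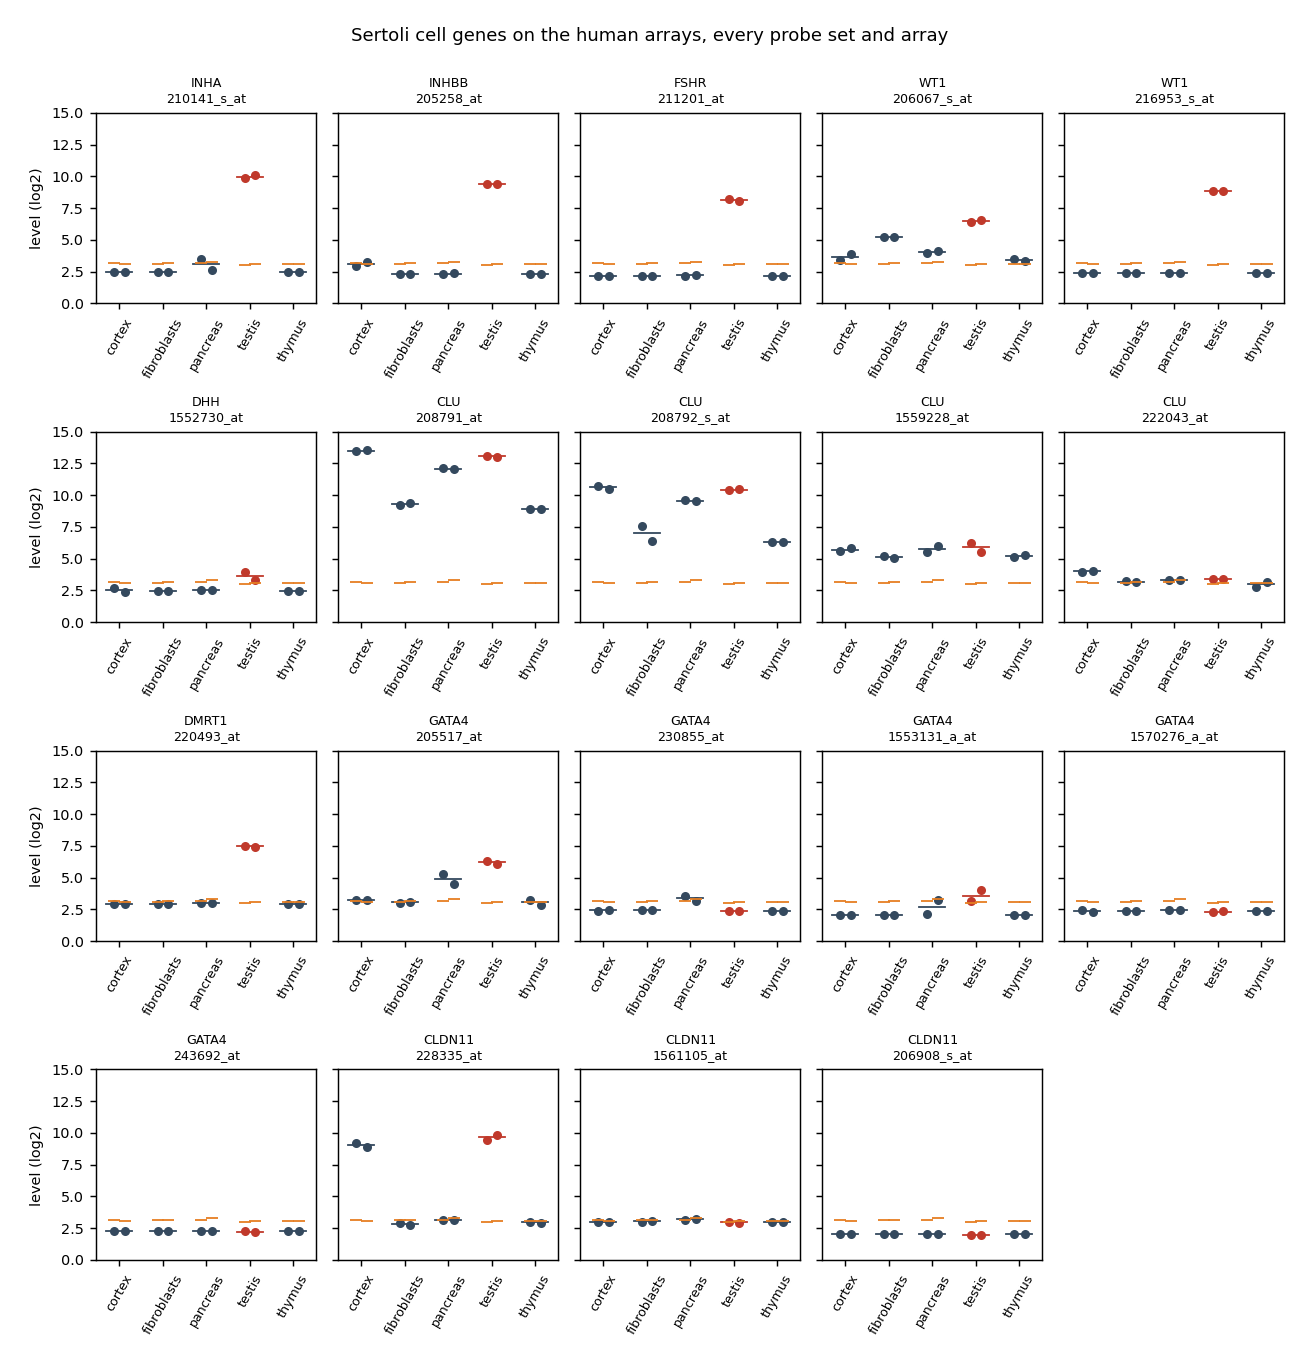
Levels (log2) of the 19 human probe sets by source, drawn as for the rhesus arrays: points are arrays (2 per source, testis in red), lines means and orange ticks the highest unspiked control. CLU and CLDN11 are as bright or nearly as bright in cortex as in testis, and 5 probe sets of GATA4 and CLDN11 are above background in no source.

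Read from their brightest probe set, 6 of 6 rhesus and 9 of 9 human members were higher in testis, as were 16.1% and 8.67% of all genes. Of the 11956 genes on both types, 8.31% were called higher on both, and 5 of 5 members were. The size of the testis difference was then compared between array types in 1 fit of all 20 arrays. A constant offset of either table cancels in this contrast. Other effects do not, among them the different probes of the array types and any separate normalization. For INHBB and DHH only testis was above background on either type, so their differences start from background. INHA differed by −0.14, human minus rhesus (95% interval −0.61 to 0.33, limma adjusted p = 0.67). INHBB was larger on the human arrays, by 4.91 (SE 0.139, adjusted p = 5.5e-11), a call that 5.34% of genes had. The difference was smaller on the human arrays for WT1, DHH and GATA4, by −5.09, −1.56 and −3.12 (adjusted p = 1.3e-10, 3.3e-05 and 2.2e-07), as for 8.31% of all genes. For WT1 the value depended on the probe set, since the human one with the lower mean level had 6.47 where the other had 2.39, and it was −2.47 when each gene was the mean or the median of its probe sets. For GATA4 the contrast was −3.92 with the mean and −4.95 with the median.

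**Figure D4:**
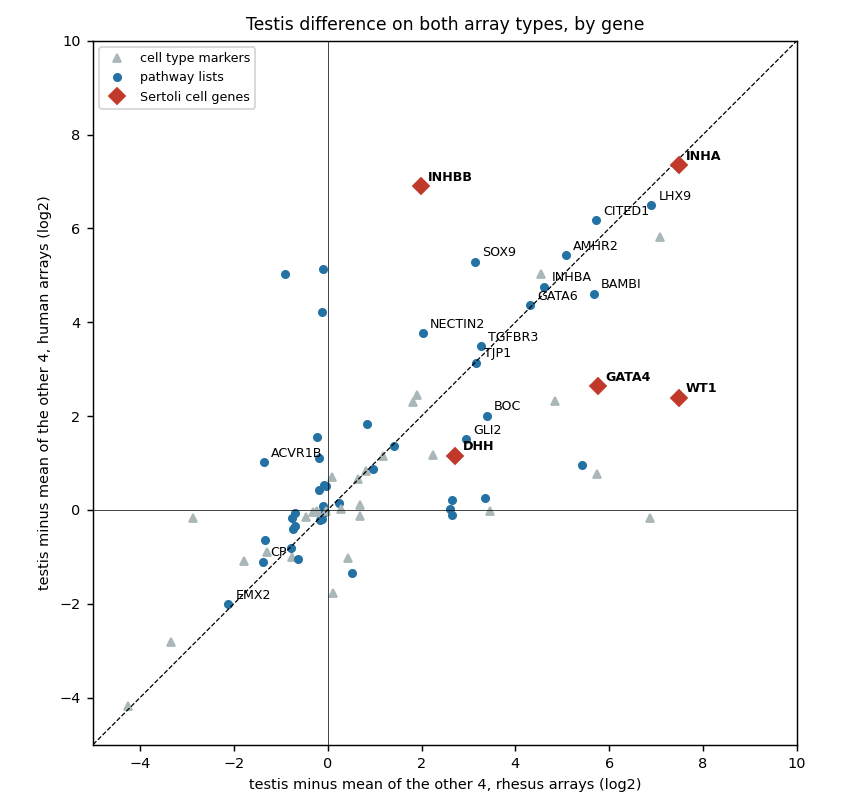
Testis difference (log2) on the rhesus arrays (horizontal) against the human arrays (vertical), 1 point per gene held by both types, for the members (red), pathway genes (blue) and cell type markers (grey). The broken line marks equal values. INHA lies on it, INHBB lies above it and WT1, GATA4 and DHH below it.

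Genes whose pattern was most like that of a member were sought among the 11956 genes, by the root mean square difference of 10 centred source means, 5 per array type. INHA was nearest to MYH11, the smooth muscle myosin heavy chain (0.487), and to LHX9, a gonad factor (0.630). INHBB was nearest to HOXC6 (0.636) and to PIWIL2, a germ cell gene of the piRNA pathway (0.807). WT1 was nearest to TSPYL6 (0.889) and STK31 (0.928), GATA4 to AGTR2, an angiotensin receptor (0.676), and DLK1 (0.806), and DHH to WNT6 (0.0815) and CKMT2 (0.0947). The members were farther from each other, between 1.56 for WT1 and DHH and 2.29 for INHA and DHH, so none was among the nearest genes of another. Levels were centred but not scaled, so this distance counts the size of the differences as well as the order of sources. It rests on the brightest probe set of each gene, and other probe sets of WT1, GATA4 and INHBB read differently.

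Genes that work with the members were described by the same calls at the gene level, beside 16.1% higher and 11.2% lower of all rhesus genes and 8.67% higher and 5.63% lower of all human genes. Over 5 lists of such genes, 20 of the 47 rhesus genes measured were higher in testis and 4 lower, against 28 and 5 of the 59 human genes measured. Their median testis differences were 0.24 and 0.95, against −0.08 and −0.06 for all genes. Testis was called higher than each other source for 15 of the rhesus and 16 of the human genes.

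In the activin and inhibin pathway, 6 of 12 rhesus and 7 of 13 human genes were higher and 1 was lower on each type. AMHR2, the receptor of AMH, was higher by 5.08 on rhesus arrays and 5.43 on human arrays, and BAMBI, a pseudoreceptor that dampens the pathway, by 5.67 and 4.61. INHBA, the beta A subunit, was higher by 4.61 and 4.76. TGFBR3, the coreceptor of inhibin, was higher by 3.27 and 3.49. ACVR1B, an activin receptor, was called in opposite directions, −1.37 on rhesus arrays and 1.02 on human arrays. On both types cortex and pancreas were brighter than testis, at 8.95 and 6.69 against 5.26 on rhesus arrays and 9.11 and 8.99 against 8.66 on human arrays. Human fibroblasts and thymus read 6.41 and 6.05. The one human gene called lower was FST, which binds and blocks activin, at −1.04, and fibroblasts held its highest level, 10.76. Testis read 4.61, above the 3.54 to 4.24 of cortex, pancreas and thymus.

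In the hedgehog pathway, which carries the DHH signal, 4 of 10 rhesus and 4 of 12 human genes were higher and the others were not called. Both array types called BOC, a coreceptor, by 3.40 and 2.00, and GLI2, a transcription factor of the pathway, which differed by 2.94 on the rhesus arrays and read 5.52 in testis against 3.67 to 4.25 elsewhere on the human arrays. PTCH1, the receptor of hedgehog ligands, read 10.09 in testis on the human arrays, a difference of 4.22, but lay at 2.30 in testis on the rhesus arrays, below background. GLI1, a target of the pathway, gave 3.35 on rhesus arrays and 0.26 on human arrays. Read as the mean of its probe sets, 0 human gene of this list was higher, and as the median 1.

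Of the other gonad transcription factors 4 of 8 rhesus and 6 of 9 human genes were higher and 1 was lower. LHX9 was higher by 6.89 and 6.49 and GATA6, a relative of GATA4, by 4.30 and 4.37, with pancreas close behind testis on both types, 9.50 against 9.73 on the rhesus arrays and 9.48 against 9.93 on the human arrays. SOX9, which drives Sertoli cell formation, differed by 3.14 and 5.29. EMX2, needed for the early gonad, had differences of −2.12 and −2.01 and was highest in fibroblasts and cortex. Its testis levels were 2.97 and 2.99, against 2.54 to 2.74 in pancreas and thymus. NR5A1, the steroidogenic factor, read 3.45 and 3.35 in testis, where its differences of 0.97 and 0.88 missed the minimum.

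Genes of the blood-testis barrier were higher for 4 of 7 rhesus and 4 of 10 human genes and lower for 1 on each type. Testis was called higher than each other source for 2 rhesus and 3 human genes. CLDN3 and F11R, called higher on the rhesus arrays, were brightest in pancreas, at 8.76 and 10.38 against 6.63 and 9.46 in testis. TJP1, the scaffold that binds claudins, was higher by 3.17 and 3.13, and NECTIN2, an adhesion protein between Sertoli cells and spermatids, by 2.02 and 3.76. OCLN was the gene lower on the rhesus arrays and GJA1, a gap junction protein of Sertoli cells, the one on the human arrays, with differences of −1.34 and −1.99. OCLN was highest in pancreas at 7.85, with 3.31 in testis against 3.07 to 4.43 in cortex, fibroblasts and thymus. GJA1 was highest in fibroblasts at 12.95 and cortex at 11.70, with 8.26 in testis against 8.28 in pancreas and 8.09 in thymus.

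Of the other Sertoli products, 2 of 10 rhesus and 7 of 15 human genes were higher and 1 and 2 lower. Testis was called higher than each other source for 2 genes on each type. CITED1 was higher by 5.73 and 6.18, and CP, the copper carrier ceruloplasmin, had differences of −1.39 and −1.10, with fibroblasts highest at 7.75 and 7.63. Outside fibroblasts CP read 2.72 to 2.95 on the rhesus and 2.73 to 3.03 on the human arrays, testis included. HOPX was the other human gene called lower, at −1.35, with cortex highest at 10.21. Its testis level was 3.71, against 2.20 to 3.98 in fibroblasts, pancreas and thymus, and its rhesus difference was 0.52, not called. TF, transferrin, and PTGDS, a prostaglandin synthase, were higher on the human arrays by 3.16 and 3.13, though PTGDS read 13.27 in cortex against 11.38 in testis. CST3, ERBB4 and BEX1, also called higher there, read 10.93, 8.94 and 13.70 in cortex against 10.69, 7.60 and 13.22 in testis. SERPINA5 differed by 5.02 on the human arrays but by −0.91 on the rhesus arrays, the latter not called. SHBG, the human name of the androgen-binding protein gene, was below background in testis on the human arrays at 2.30, and was not read on the rhesus arrays.

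**Figure D5:**
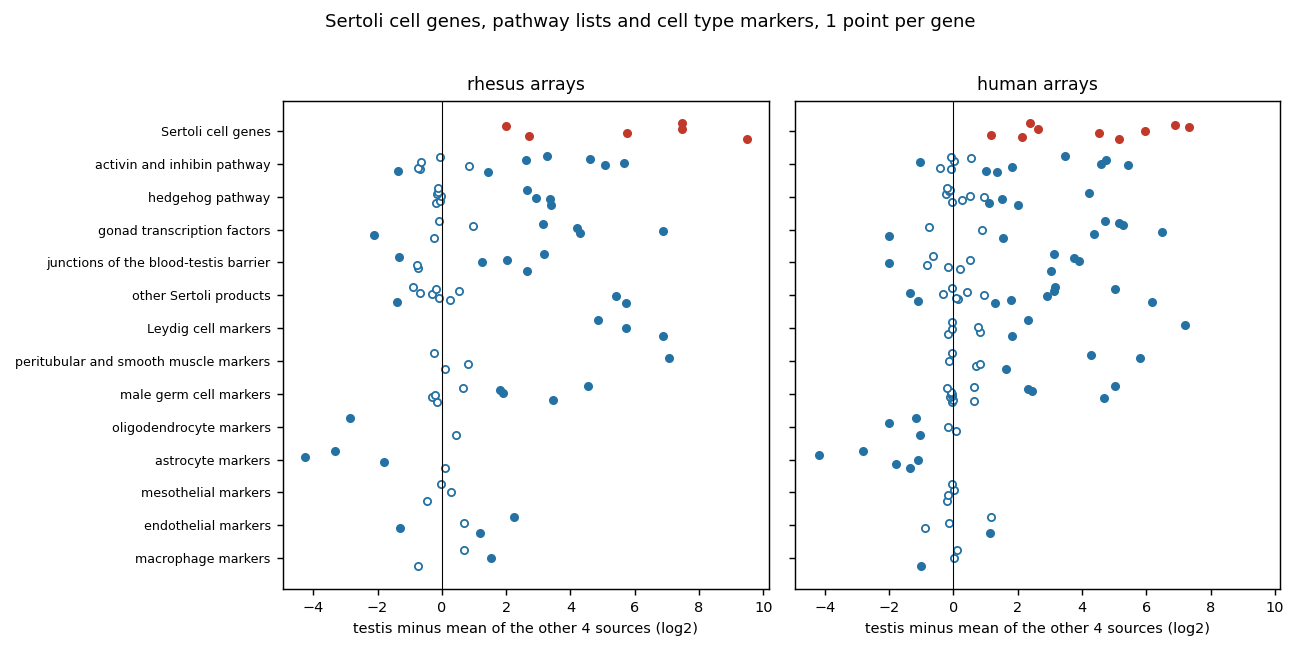
Testis minus the mean of the other 4 sources (log2), 1 point per gene read from its brightest probe set, for the members (red), the 5 pathway lists and 8 lists of cell type markers (blue) on the rhesus (left) and human (right) arrays. Filled points are called. The members all lie to the right of 0, whereas the 5 pathway lists spread to both sides of it.

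Markers of other testis cells were measured beside the members, and their part in the members' levels was not tested. As given above, 16.1% of all rhesus and 8.67% of all human genes were called higher in testis. Leydig cell markers were higher for 3 of 3 rhesus and 3 of 8 human genes, and the log2 of their summed levels was 10.37 to 10.38 in testis against 4.18 to 4.50 elsewhere on the rhesus arrays, and 9.91 to 9.97 against 5.58 to 5.83 on the human arrays. STAR, which brings cholesterol into the mitochondrion for steroid synthesis, was called on both types, by 4.84 and 2.32. The array types differed for other genes of this list. CYP17A1, an enzyme of androgen synthesis, read 9.64 in testis on the rhesus arrays, a difference of 6.88, but 3.63 on the human arrays, a difference of −0.17 that was not called. HSD3B2, another steroid enzyme, gave 5.74 and 0.76, the latter not called. INSL3, a Leydig cell hormone read by the human arrays, was higher by 7.22, and at 9.81 in testis it made most of their summed level. LHCGR, HSD3B1, HSD17B3 and HSD3B2 were at background in testis on those arrays. HSD3B2 read 8.48 in testis on the rhesus arrays, so background on the human arrays alone does not show that a transcript was absent.

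Most peritubular and smooth muscle markers were not called. They were higher for 1 of 4 rhesus genes and 3 of 7 human genes, MYH11 being called on both types by 7.07 and 5.81. Their sums were 12.10 to 12.13 and 12.31 to 12.58 in testis, below the 13.19 to 13.20 and 13.50 to 13.61 in fibroblasts. On the rhesus arrays these sums compare different probe sets. MYH11 made most of that in testis, at 12.05 against 4.21 in fibroblasts, and TAGLN most of that in fibroblasts, at 13.18 against 7.34 in testis. Male germ cell markers were higher for 4 of 8 rhesus and 4 of 14 human genes, with medians of 1.23 and −0.03 over the list. ZPBP, a protein of the acrosome, was higher by 4.54 and 5.04, and the meiotic chromosome proteins SYCP1 and SYCP3 were higher by 1.91 and 1.81 on the rhesus and by 2.44 and 2.31 on the human arrays. DAZL, an RNA-binding protein of germ cells, gave 3.45 on the rhesus arrays but −0.02 on the human arrays, where it read 2.87 in testis. DDX4, a germ cell helicase, was higher by 4.68 on the human arrays. ACR and ODF1, of the acrosome and the sperm tail, were at background in testis on both types, as were 7 of 14 human genes of the list in all. The germ cell sums were 8.76 to 8.90 in testis on the rhesus arrays and 8.95 to 9.26 on the human arrays, against 6.19 to 6.76 and 6.55 to 7.23 elsewhere.

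Endothelial markers were higher for 2 of 4 rhesus and 1 of 4 human genes, CDH5 being called on both by 1.18 and 1.14. CDH5 was brighter in pancreas, at 6.03 against 5.00 in testis on the rhesus and 5.35 against 5.03 on the human arrays. Rhesus VWF, also called higher, read 8.08 in pancreas and 7.69 in testis, and PECAM1 was lower on the rhesus arrays at −1.29. Of 3 macrophage markers on each type, 1, CD68, was called higher on the rhesus arrays, where it read 6.89 in testis and 9.86 in cortex. Another, CD14, was called lower on the human arrays, where it read 3.06 in testis and 6.74 in fibroblasts. In neither list was a gene called higher in testis than in each other source. Both lists summed to less in testis than in thymus on both types. In thymus PECAM1 and LYZ made most of these sums, at 9.41 and 11.53 on the rhesus and 8.76 and 10.20 on the human arrays. PECAM1, LYZ and CD14 read lower in testis than in thymus on both types. VWF and CDH5 read higher in testis on both, as did TEK and CD68 on the rhesus arrays.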

How the data were processed

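Total RNA of 5 rhesus macaque sources was read on 10 rhesus and 10 human arrays, 2 per source and type. For either type the log2 values were deposited by the authors as 1 table, and RMA is the method in the submitters' processing notes. Neither its version nor which arrays were processed together is given there. Sources came from the sample labels and gene symbols from the annotation of the array designs, which paired AMH on the human arrays only with a probe set of 2 symbols that was not used. Single symbols were held by 24956 rhesus and 41091 human probe sets other than controls, for 14132 and 19775 genes.

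The log2 values were used as deposited. They were fitted with limma 3.58.1 (lmFit and eBayes) in R 4.3.3, separately for 52766 rhesus probe sets and 54613 human ones, with Benjamini-Hochberg adjustment over all of them. The fit was tested on simulated data. A gene was read from the probe set with its highest mean. Background was the highest of 42 rhesus or 27 human unspiked bacterial control probe sets on each array. Summed levels were added on the linear scale, so a sum can rest on its brightest gene. In list summaries a gene was at background where its mean did not exceed that limit. The text names all members, up to 4 genes of each list with the largest difference called alike on both array types, genes called in opposite directions and the 2 nearest genes by pattern. FST, PTCH1, GLI1, NR5A1, OCLN, CLDN3, F11R, GJA1, HOPX, TF, PTGDS, CST3, ERBB4, BEX1, SERPINA5, SHBG and single markers were chosen after their values were seen. Members and lists were chosen with earlier results of these data known. Alternatives were 3 normalizations, dim probe sets left out, the call without a minimum difference, a contrast from ordinary analysis of variance, 2 other gene readings, a replicate block, no pancreas arrays and each array left out. The number of arrays limits the precision.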

Additional observations from a re-analysis of the deposited data

Results flagged for a closer look

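The same RNA gave testis differences that differed between array types for 4 of the 5 genes held by both, in the limma contrast of the human minus the rhesus testis difference. Of all genes on both types, 5.34% were called larger on the human arrays and 8.31% smaller. INHBB had a difference 4.91 larger on the human arrays. WT1, GATA4 and DHH had contrasts of −5.09, −3.12 and −1.56. With each array left out in turn the contrasts ran from 4.78 to 5.04 for INHBB, from −5.21 to −4.98 for WT1, from −3.24 to −2.99 for GATA4 and from −1.90 to −1.22 for DHH, all still called. The choice of probe set moved their size. With each gene read as the mean of its probe sets WT1 gave −2.47, GATA4 −3.92 and INHBB 5.94, with the median GATA4 gave −4.95, and each was still called. For WT1 the human probe set 216953_s_at had a testis difference of 6.47, against 2.39 for 206067_s_at.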

How the results depend on the processing

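All 21 member probe sets called in testis kept their direction in every alternative tried, and 19 kept their call in each. The others were DHH 1552730_at, at 0.82 without testis replicate 3, and GATA4 1553131_a_at, at 0.95 without testis replicate 4. Some uncalled probe sets with differences near 0 changed sign: with array medians subtracted CLDN11 206908_s_at gave 0.032, GATA4 1570276_a_at 0.015 and GATA4 243692_at 0.025, and with quantile normalization GATA4 243692_at gave 8.4e-05 and INHBB Mmu.12211.1.A1_at 0.019. CLU 222043_at gave −0.0069 with spiked controls subtracted, −0.018 without the pancreas arrays and −0.039 to 0.055 with 1 array left out, lowest without thymus replicate 3. Counts moved as follows. Without a minimum difference 1 human member was lower in testis, 1 was higher in fibroblasts and 7 were higher in pancreas, where the count was otherwise 0, 3 rhesus members were higher in pancreas in place of 1, and 9 human and 12 rhesus pathway genes were lower in place of 5 and 4. Quantile normalization gave 3 human and 2 rhesus members higher in pancreas and 9 rhesus pathway genes lower. Subtracting spiked controls gave 1 human member higher in fibroblasts. Reading genes as the mean or median of probe sets gave 3 human pathway genes lower. With 1 array left out, members higher in pancreas numbered 0 to 2 on the human arrays, most without pancreas replicate 4, and 1 to 2 on the rhesus arrays, most without pancreas replicate 2. The cause of these changes was not tested. Deviations of arrays with the same number correlated between sources from −0.03 to 0.02, so the numbers were not taken to pair arrays, and with the replicate block the counts of members higher in testis were 9 and 12, as without it. The block changed the call of 0 of the members and moved the human pathway genes higher in testis from 28 to 27. Background signal limits what can be said of members below it, and 2 arrays per source limit small differences.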
